A study of Oryctolagus cuniculus with 8 samples.

Results

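ABCB1, which pumps drugs out of the brain at the blood-brain barrier, and ANGPT2, a secreted factor that remodels vessels, were followed in the forebrain of preterm rabbit pups given dexamethasone or saline. All non-control probes whose gene name or description in the array's annotation gave ABCB1 or angiopoietin 2 were taken. These were 3 of 43603 probes, 1 for ABCB1 and 2 for ANGPT2, and the 2 genes were among the 10805 genes or transcripts with measurable values. Both genes had been picked for their difference between dexamethasone and saline in these same samples, so that difference is given as a description with no test. ABCB1 stood 1.66-fold higher with dexamethasone, from 4 dexamethasone and 3 saline values, which were fully separated. Full separation with dexamethasone higher was found in 5.88% of the 10805, or 13.4% counting both directions. Nothing is read from it for a gene picked by this contrast. ANGPT2 stood 1.22-fold higher at 1 probe, with overlapping groups, and 1.04-fold higher at its other probe, and both turned negative when samples were scaled to their 75th percentile.

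The dexamethasone group held 4 forebrain samples and the saline group 4. Dexamethasone, a synthetic glucocorticoid, was injected into muscle at a dose of 0.25 mg/kg, with 2 injections daily and a limit of 5 days, and the control pups received the saline vehicle. All pups were New Zealand rabbits delivered by Caesarean section on day 29 of a 32-day gestation, kept in an incubator, fed formula by gavage and sampled at postnatal day 14. The title of the series asks about glucocorticoids after birth and myelination. Every pup of both groups was preterm, so no value sets preterm against term birth. The design text calls the samples biological replicates. The labels do not say how many pups went into a sample, which litters they came from or on which days they were treated, so p-values measure the spread between these samples only.

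RNA of the 8 samples was read on 4 arrays, each with 2 samples of the same group, of which samples 1 and 3 carried the dye Cy3 and samples 2 and 4 Cy5. Slide 2, from scan 2, held all dexamethasone arrays, and slide 1, from scan 1, all saline arrays, so slide and scan cannot be told apart from treatment. Spots well above background made up 47.7% to 64.3% of a dexamethasone sample and 39.1% to 59.7% of a saline sample. The scanner software marked 197 to 509 outlier spots in the dexamethasone samples and 932 to 3022 in the saline samples. Precision is limited by the number of arrays, with SEs of log2 differences at a median of 0.13. The 10 probes for spike-in RNA all lay lower on the dexamethasone arrays, by -0.56 to -0.30 log2 units, and the part of this shift in other values was not tested. Neuronal markers, the check of the labelled tissue, averaged 14.13 to 14.35 log2 units with dexamethasone and 14.09 to 14.39 in saline over 4 genes.

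ABCB1 encodes P-glycoprotein, an ATP-driven pump that sits in the membrane of brain capillary endothelial cells facing the blood and returns lipophilic drugs, dexamethasone among them, to the circulation. ANGPT2 encodes angiopoietin 2, which endothelial cells store and release and which binds the receptor TEK (also called TIE2), where it competes with the stabilising ligand ANGPT1. In the developing brain ANGPT2 is known from growing vessels, and together with VEGF it marks the vessel-rich germinal matrix of the preterm forebrain.

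Probe sequences are shown because each measurement stands for 1 short stretch of its transcript, and the ANGPT2 pair did not give the same value. The ABCB1 probe A_04_P001671 covers transcript positions 4163 to 4222 of the gene with identifier 100008914. The array's annotation puts it on the plus strand of chromosome 10, from 40888373 to 40888432, in the rabbit build oryCun2. It has a GC content of 35.0% and a stop codon in each forward reading frame, so that 0 frames are open. Its first 30 bases read:
A_04_P001671: gagattgtcaggtggggcagagtggcttaa

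The ANGPT2 probes belong to the gene with identifier 100353377 and carry no genome position in the array's annotation. Both probes, A_04_P062588 and A_04_P062587, were designed on the same transcript. A_04_P062587 covers its positions 1399 to 1458, has 2 open forward reading frames and reads:
A_04_P062587: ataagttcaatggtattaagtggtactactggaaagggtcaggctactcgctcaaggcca

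ABCB1 was brighter in every dexamethasone sample than in every saline sample. On the log2 scale of normalised intensity it stood at 10.30, 10.31, 10.45 and 10.64 in dexamethasone samples 1 to 4, against 9.59, 9.94 and 9.47 in saline samples 1 to 3. In saline 4 the spot was marked as non-uniform and left out, and kept it would have stood at 9.62, within the range of the other saline samples. The means were 10.43 ± 0.16 (SD, n = 4) with dexamethasone and 9.67 ± 0.24 (SD, n = 3) in saline. The fitted log2 difference was 0.73 (SE 0.14), which 52 of the 10805 genes, or 0.481%, reached or passed. The groups of 5.88% of all genes did not overlap with dexamethasone higher, and since ABCB1 was picked by this contrast, nothing is read from its being among them. In whole forebrain RNA, more cells of a type and more RNA per cell cannot be told apart.

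**Figure D1:**
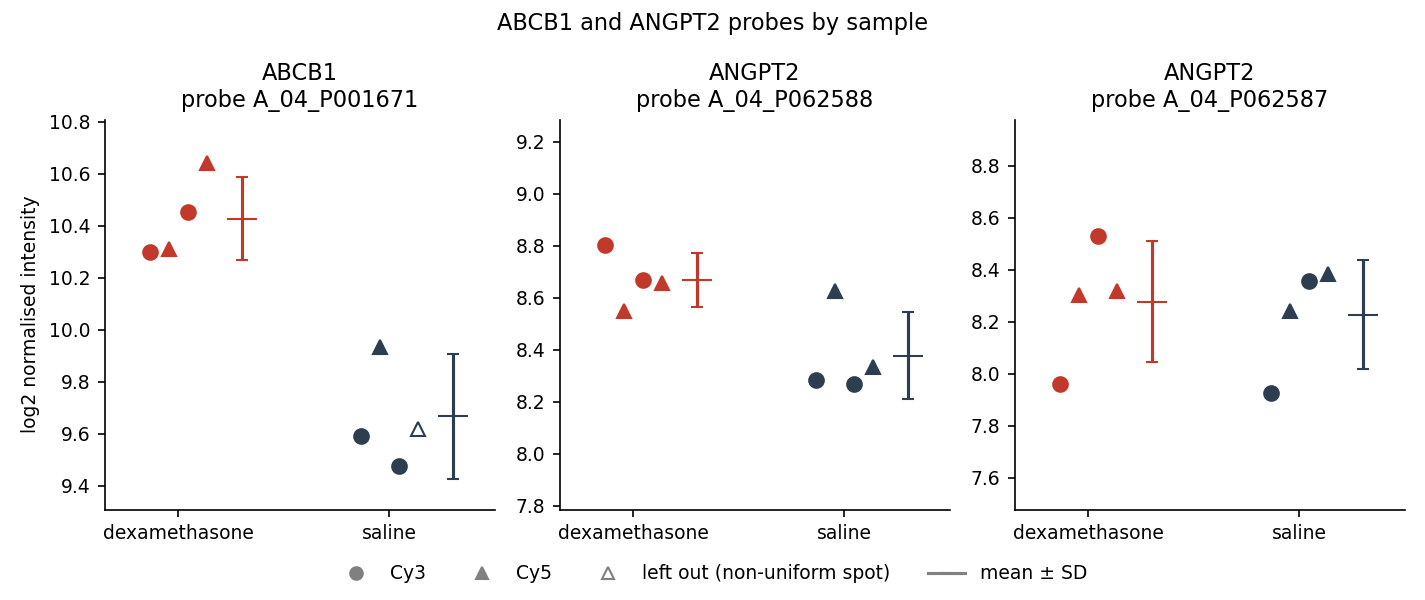
Log2 normalised intensity of the 3 probes in each sample, with dexamethasone in red at the left and saline in dark blue at the right of each panel, circles for Cy3, triangles for Cy5 and bars for the mean ± SD. The 4 dexamethasone values of ABCB1 lie between 10.30 and 10.64, all above saline, and the open triangle at 9.62 is saline 4, left out as a non-uniform spot. Both ANGPT2 panels overlap, and the vertical scales of the panels differ in their levels.

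The ABCB1 spot was well above background in 4 of 4 dexamethasone and 4 of 4 saline samples. Its mean signal before any correction was 955 and 969 scanner units in the Cy3 dexamethasone samples 1 and 3, against 419 and 257 in the Cy3 saline samples 1 and 3. In Cy5 it was 1767 and 1992 in dexamethasone samples 2 and 4, against 961 and 792 in saline samples 2 and 4. Within each dye both dexamethasone spots were brighter than both saline spots, with the non-uniform saline 4 spot counted. ABCB1 was picked by this contrast, so nothing is read from that. The log2 difference was 0.84 within Cy3 (2 samples against 2) and 0.54 within Cy5 (2 against 1).

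The deposited series table, in which each value is a multiple of the median spot of its sample, listed ABCB1 at 5.78, 5.51, 6.25 and 5.98 in dexamethasone samples 1 to 4, against 2.85, 3.18, 1.48 and 2.15 in saline samples 1 to 4. These groups did not overlap either, with saline 4 included, and nothing is read from that, since ABCB1 was picked by this contrast. The size of the ABCB1 difference was 0.73 as reported and 1.04 with no background correction of the same intensities. It was 1.00 from the scanner software's processed signals and 1.34 from the deposited table, both of which also leave out the loess and between-array steps. Its direction was the same in each.

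ANGPT2 differed less. At probe A_04_P062588, which stands for the gene in the fit, it stood at 8.80, 8.55, 8.67 and 8.66 log2 units in dexamethasone samples 1 to 4, against 8.28, 8.62, 8.27 and 8.33 in saline samples 1 to 4. Saline 2 lay above dexamethasone 2, so the groups overlapped, while the other saline samples lay below every dexamethasone sample. The means were 8.67 ± 0.10 (SD, n = 4) with dexamethasone and 8.38 ± 0.17 (SD, n = 4) in saline. The fitted log2 difference was 0.29 (SE 0.13), which 1033 of the 10805 genes, or 9.56%, reached or passed. The probe was well above background in 4 of 4 dexamethasone samples but in 2 of 4 saline samples, the Cy5 ones.

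At the other probe, A_04_P062587, ANGPT2 stood at 7.96, 8.30, 8.53 and 8.32 log2 units in dexamethasone samples 1 to 4, against 7.93, 8.24, 8.36 and 8.38 in saline samples 1 to 4. The ranges of the groups overlapped almost entirely. The means were 8.28 ± 0.23 (SD, n = 4) with dexamethasone and 8.23 ± 0.21 (SD, n = 4) in saline, and the log2 difference was 0.05 (SE 0.16). This probe was well above background in 3 of 4 dexamethasone and 2 of 4 saline samples. Averaged over both probes, the ANGPT2 difference was 0.17.

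The ANGPT2 difference at A_04_P062588 was 0.46 within Cy3 and 0.13 within Cy5, each with 2 samples against 2. The Cy3 saline spots were those not well above background, with a mean signal 3.96 and 2.97 times the local background, against 10.9 and 8.42 times in the Cy3 dexamethasone samples. In Cy5 the multiples were 10.1 and 9.03 with dexamethasone, against at most 7.00 in saline. At A_04_P062587 the difference was 0.10 within Cy3 and -0.0027 within Cy5. When each sample was scaled to its 75th percentile in place of the loess and between-array steps, both ANGPT2 probes turned to -0.76 and -1.25, while ABCB1 was 0.82. Under that scaling the median of all genes lay at -0.30, and relative to it ANGPT2 stood at -0.46 and ABCB1 at 1.12.

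**Figure D2:**
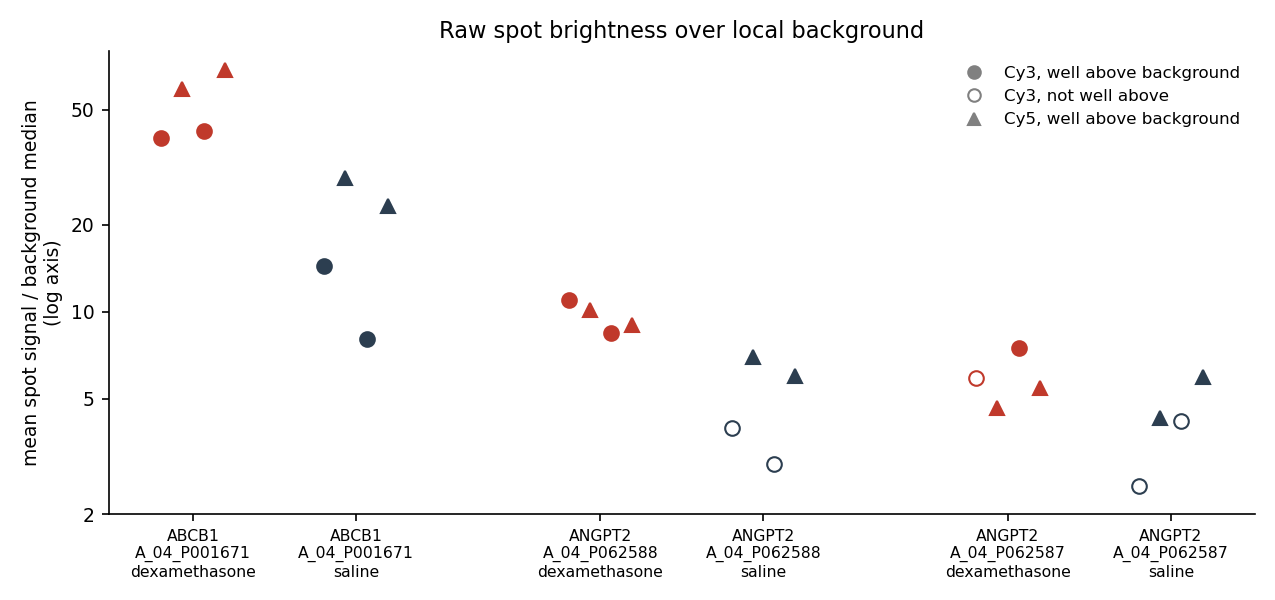
Mean spot signal divided by the median local background, on a log axis, for each probe and sample, with dexamethasone in red left of saline in dark blue; open symbols are spots not well above background. ABCB1 lies between 39.8 and 68.7 with dexamethasone and between 8.03 and 29.1 in saline. The Cy3 saline spots of A_04_P062588 lie at 3.96 and 2.97.

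**Figure D3:**
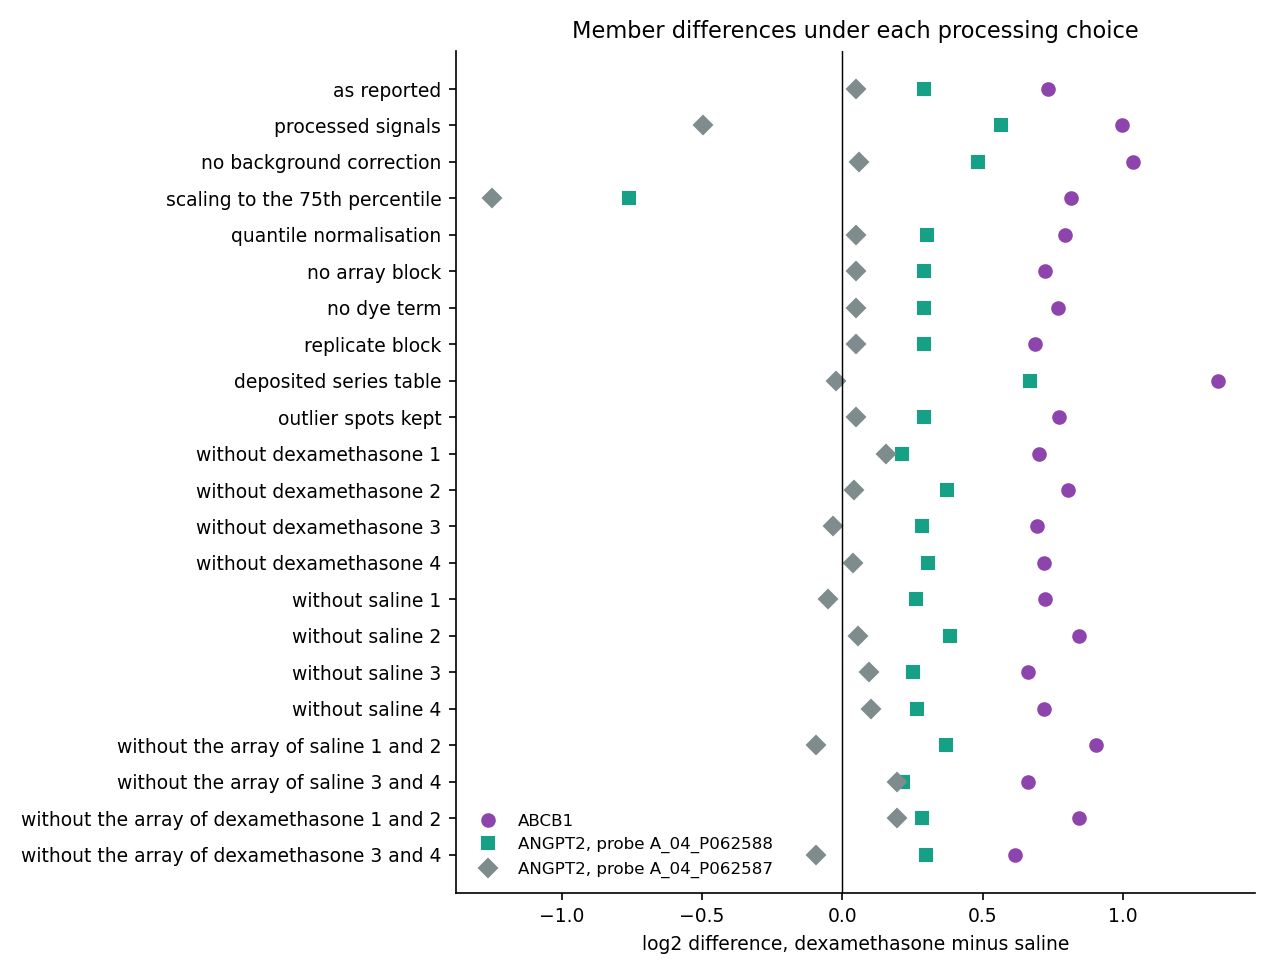
Log2 difference, dexamethasone minus saline, of the 3 probes as reported (top) and under other processing choices or with samples left out, 1 row each. Changes to the filters on probes and genes and to the probe rule are not shown. ABCB1 stays between 0.61 and 1.34; probe A_04_P062588 of ANGPT2 runs from -0.76 to 0.67 and probe A_04_P062587 from -1.25 to 0.20.

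The genes that work beside ABCB1 and ANGPT2 were taken from 10 lists of barrier, vessel and glucocorticoid genes. Leaving out the pair itself, the lists held 229 symbols, of which 153 had a probe and 96 had measurable values. At the threshold of 0.05, 0 of these 96 were higher and 0 lower (limma with adjustment by Benjamini and Hochberg over all 10805 genes; the smallest adjusted p was 0.304), where the fit called 0.0185% of all genes higher, 0.0463% lower and 0.0648% in either direction. At an unadjusted p under 0.05, 8 of the 96 passed, all of them lower with dexamethasone, against 6.34% of all genes higher and 7.59% lower. The differences lay above 0 for 47 and below 0 for 49, against 53.9% of all genes above 0 and a median of 0.02. That median of all genes itself lay at -0.28 with the processed signals, -0.30 with scaling to the 75th percentile and 0.13 in the deposited table. The list medians and counts above 0 given below under these settings do not take it off.

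**Figure D4:**
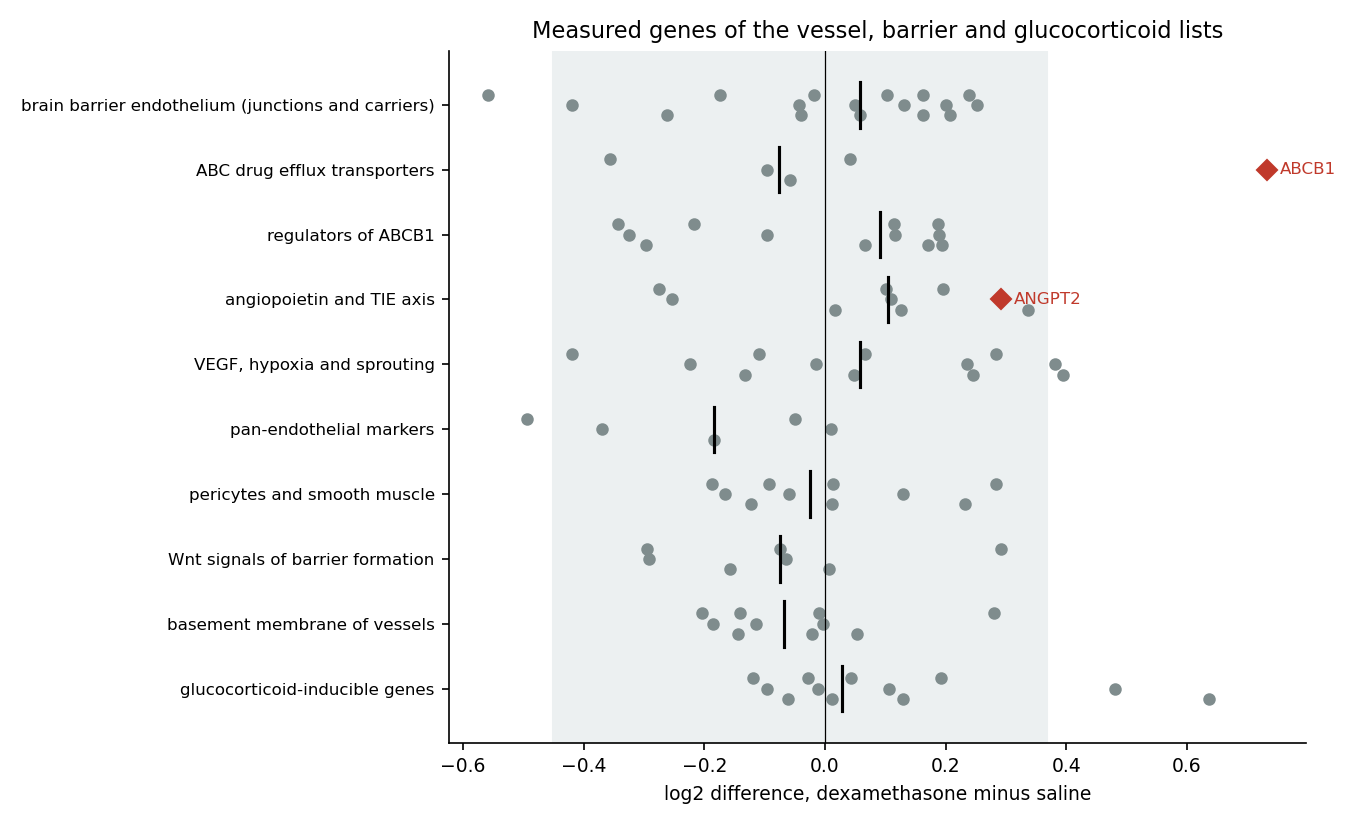
Log2 difference, dexamethasone minus saline, of each measured gene of the 10 lists (grey points), with the list median without ABCB1 and ANGPT2 as a black bar and the pair as red diamonds. The grey band runs from -0.45 to 0.37, the 5th to 95th percentile of all 10805 genes. ABCB1 at 0.73 lies outside the band and ANGPT2 at 0.29 inside it.

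The other efflux transporters were measured in part. Of 14 listed transporters 10 had a probe, and of the 4 measured beside ABCB1, 1 lay above 0 and 3 below, with their median (log2 difference) at -0.08. That median was -0.53 with the processed signals and -0.56 with scaling to the 75th percentile, where 0 of the 4 lay above 0, and 0.04 in the deposited table. ABCB4, the phospholipid carrier that is the closest relative of ABCB1, stood at 8.75, 8.94, 8.98 and 8.91 log2 units in dexamethasone samples 1 to 4, against 8.96 to 9.03 in the 4 saline samples. Dexamethasone 3 lay within the saline range and the other 3 dexamethasone samples below it. Its difference was -0.10 (SE 0.10; Benjamini-Hochberg adjusted p = 0.636 from limma). ABCC4, which exports organic anions, differed by -0.06 (SE 0.16), and by -0.24 (SE 0.15) at its other probe. ABCC5, a carrier of cyclic nucleotides, differed by 0.04 (SE 0.10). ABCA1, which exports cholesterol, differed by -0.36 (SE 0.13; Benjamini-Hochberg adjusted p = 0.341 from limma), and its other probes by -0.19 and -0.01. ABCG2, the other main drug pump of the barrier, had no probe named for it here.

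Known regulators of ABCB1 transcription spread around 0. Of 24 listed, 18 had a probe and 12 were measured, 7 above 0 and 5 below, with their median (log2 difference) at 0.09. The median was -0.25 with the processed signals and -0.54 with scaling to the 75th percentile. Relative to the median of all genes there, it stood at 0.02 and -0.24. NR3C1, the glucocorticoid receptor that dexamethasone binds, stood at 8.81 ± 0.13 (SD, n = 4) with dexamethasone and 8.90 ± 0.12 (SD, n = 4) in saline. The NR3C1 difference was -0.10 (SE 0.12; Benjamini-Hochberg adjusted p = 0.701 from limma), and its other probes gave -0.13 (SE 0.10) and -0.36 (SE 0.16). NR1I2, the drug-sensing pregnane X receptor known to induce ABCB1, had a signal near background in every sample (0 of 8 well above it) and has no value. NFYA, a subunit of the CCAAT-binding factor, differed by 0.19 (SE 0.09) with no overlap between groups, at 8.63 to 8.74 with dexamethasone and 8.46 to 8.54 in saline, as for 5.88% of all genes. The other 4 NFYA probes lay between -0.04 and 0.09. The forkhead factor FOXO3 differed by 0.19 (SE 0.16), and its other probes by 0.09 to 0.32. The retinoid X receptor RXRB differed by -0.33 (SE 0.11; Benjamini-Hochberg adjusted p = 0.322 from limma).

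Partners of ANGPT2 were measured in part. Of 18 listed genes of the angiopoietin and TIE axis, 11 had a probe and 8 were measured beside ANGPT2. Of these 6 lay above 0 and 2 below, with their median (log2 difference) at 0.11. The median was -0.13 with the processed signals and -0.35 with scaling to the 75th percentile. Relative to the median of all genes there, it stood at 0.15 and -0.05. TEK, the receptor of ANGPT2, stood at 8.79, 8.44, 8.58 and 8.59 log2 units in dexamethasone samples 1 to 4, against 8.57, 8.84, 8.09 and 8.13 in saline samples 1 to 4. Saline 2 lay above every dexamethasone sample, so the groups overlapped. The TEK difference was 0.20 (SE 0.19; Benjamini-Hochberg adjusted p = 0.638 from limma), and its probe was well above background in 4 of 4 dexamethasone and 2 of 4 saline samples. ANGPT1, the competing ligand, and TIE1, the co-receptor, had no probe named for them here.

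Integrins bind ANGPT2 where TEK is scarce. Of their subunits, ITGAV differed by 0.34 (SE 0.33), ITGA5 by -0.27 (SE 0.15) and ITGB3 by -0.25 (SE 0.12), with limma and Benjamini-Hochberg adjusted p-values of 0.629, 0.416 and 0.366. The groups of ITGA5 did not overlap, with dexamethasone lower, as for 7.57% of all genes, or 13.4% in either direction. For ITGAV 1 dexamethasone sample lay far below the other 3, at 8.32. Saline 3 and 4, which shared an array, stood at 8.06 and 8.12, and saline 1 and 2 at 8.93 and 9.37. The other ITGAV probes ran from -0.28 to 0.38, and the other ITGB3 probe gave 0.0048 (SE 0.16).

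In the VEGF, hypoxia and sprouting list, whose signals act together with ANGPT2 on growing vessels, 21 of 33 genes had a probe and 12 were measured. Of these 7 lay above 0 and 5 below, with their median (log2 difference) at 0.06. The median was -0.03 with the processed signals and -0.31 with scaling to the 75th percentile. Relative to the median of all genes there, it stood at 0.25 and -0.01. VEGFA had no probe named for it here, and its receptors KDR and FLT1 were well above background in 0 of 8 samples. HIF1A, the oxygen-sensitive transcription factor, differed by 0.39 (SE 0.19), and its other probes gave -0.16 and 0.39. ESM1, a proteoglycan secreted by endothelial tip cells, differed by 0.38 (SE 0.29), and its other 4 probes by 0.39 to 0.57. THBS1, an inhibitor of vessel growth, differed by -0.42 (SE 0.12; Benjamini-Hochberg adjusted p = 0.304 from limma). It stood at 9.91 to 10.21 log2 units with dexamethasone and 10.23 to 10.65 in saline. The groups did not overlap, with dexamethasone lower, as for 7.57% of all genes.

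Markers of the endothelial cells that carry ABCB1 and ANGPT2 lay mostly below 0. Of 31 pan-endothelial markers 15 had a probe and 5 were measured, 1 above 0 and 4 below; the median log2 difference was -0.18, and it was -0.57 with the processed signals, -0.68 with scaling to the 75th percentile and -0.34 in the deposited table. Over the 4 with a value in every sample, the mean was 8.87 to 8.96 log2 units with dexamethasone and 9.02 to 9.26 in saline. These means did not overlap. Of single genes, 7.57% did not overlap with dexamethasone lower. No such share was computed for means over several genes, so nothing is read from the separation. THBD, the thrombin receptor thrombomodulin, stood at 9.06, 8.95, 9.18 and 8.80 in dexamethasone samples 1 to 4, against 9.36, 9.48, 9.31 and 9.32 in saline samples 1 to 4. The difference was -0.37 (SE 0.12; Benjamini-Hochberg adjusted p = 0.309 from limma). The lipid receptor S1PR1 differed by -0.49 (SE 0.25) and the junction protein ESAM by 0.01 (SE 0.15). PECAM1 had 0 of 8 samples well above background and CDH5 had no probe named for it here, so defining endothelial markers are among those not measured. The part of endothelial cell number in the ABCB1 and ANGPT2 values was not tested.

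Genes of the barrier itself, the junctions and carriers of brain endothelium, had 24 of 34 members with a probe and 17 measured, 10 above 0 and 7 below. Their median log2 difference was 0.06 and turned to -0.21 with the processed signals and -0.35 with scaling to the 75th percentile. CLDN5, the main claudin of the barrier's tight junctions, stood at 10.15, 9.88, 10.40 and 10.13 log2 units in dexamethasone samples 1 to 4, against 9.98, 9.98, 10.34 and 10.33 in saline samples 1 to 4. The groups overlapped, and the difference was -0.02 (SE 0.15; Benjamini-Hochberg adjusted p = 0.961 from limma). OCLN, another junction protein, differed by 0.16 (SE 0.20). The junction scaffold TJP1 differed by -0.56 (SE 0.30), with saline 3 and 4 at 9.37 and 9.56 and every other sample between 8.20 and 8.44. SLC2A1, the glucose carrier GLUT1, differed by 0.05 (SE 0.34), and its other 4 probes by -0.61 to 0.59. The amino acid carrier SLC38A3 differed by -0.42 (SE 0.17), the thyroxine carrier SLCO1C1 by 0.25 (SE 0.22) and caveolin CAV1 by 0.24 (SE 0.12), with limma and Benjamini-Hochberg adjusted p-values of 0.354, 0.597 and 0.386. The other SLCO1C1 probes gave 0.13 and 0.06, and the other CAV1 probes ran from 0.07 to 0.34.

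The surroundings of the vessels held no called gene, where the fit called 0.0648% of all genes. Nothing is read from that. Of 20 genes of pericytes and smooth muscle, the cells that wrap vessels and release ANGPT1, 16 had a probe and 10 were measured, 5 above 0 and 5 below, with their median at -0.02. It was -0.25 with the processed signals, where 1 lay above 0, -0.19 with scaling to the 75th percentile and 0.09 in the deposited table. PDGFRB, the defining pericyte receptor, was well above background in 0 of 8 samples. DES, the intermediate filament desmin, differed by -0.17 (SE 0.09) without overlap between groups, dexamethasone lower, as for 7.57% of all genes. ACTA2, smooth muscle actin, differed by 0.28 (SE 0.20). Of 21 genes of the Wnt signal that induces barrier properties in brain endothelium, 15 had a probe and 7 were measured, 2 above 0 and 5 below, with their median at -0.08. It was -0.54 with the processed signals, -0.68 with scaling to the 75th percentile, where 0 of 7 lay above 0, and -0.23 in the deposited table. APCDD1, a Wnt target and inhibitor, differed by -0.30 (SE 0.10; Benjamini-Hochberg adjusted p = 0.323 from limma) without overlap, again as for 7.57% of all genes. The co-receptor LRP6 differed by 0.29 (SE 0.19). Of 18 basement membrane genes 12 had a probe and 10 were measured, 2 above 0 and 8 below, with their median at -0.07, which became -0.30 with the processed signals, 0.08 with scaling to the 75th percentile and 0.02 in the deposited table. The collagen COL4A1 differed by -0.20 (SE 0.14) and the laminin chain LAMB2 by 0.28 (SE 0.17), with -0.15 at its other probe.

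Genes that glucocorticoids are known to induce gave the comparison for the drug itself. Of 19 listed, 14 had a probe and 12 were measured, 7 above 0 and 5 below, with their median (log2 difference) at 0.03. The median was -0.19 with the processed signals and -0.74 with scaling to the 75th percentile. Relative to the median of all genes there, it stood at 0.09 and -0.44. ABCB1 was picked for its difference, so its place among these genes is not read. The highest difference was that of TXNIP, an inhibitor of thioredoxin, at 0.64 (SE 0.29), with -0.07 at its other probe. Next came DDIT4, an inhibitor of mTOR signalling, at 0.48 (SE 0.23), well above background in 4 of 4 dexamethasone and 2 of 4 saline samples. The lowest were DUSP1 at -0.12 (SE 0.22) and ERRFI1 at -0.10 (SE 0.21). DUSP1 was well above background in 1 of 4 saline samples, and the other ERRFI1 probes ran from -0.16 to 0.12.

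Markers of other forebrain cells gave the setting in which ABCB1 and ANGPT2 were read. All 6 measured astrocyte markers, of 11 listed, lay above 0, with a median of 0.15. With the processed signals 3 of 6 did, with a median of -0.046, and with scaling to the 75th percentile 4 of 6, with a median of 0.51. Over 5 of them the mean was 10.06 to 10.36 log2 units with dexamethasone and 9.98 to 10.16 in saline. Neuronal markers had 3 of 5 above 0, oligodendrocyte markers 2 of 3, microglial markers 1 of 3 and blood cell markers 3 of 5. Choroid plexus markers had 3 of 4 above 0, with a mean of 9.52 to 10.78 with dexamethasone and 9.58 to 10.23 in saline. Meningeal markers had 4 of 7 above 0, and their mean over 6 genes had a median of 10.61 over the dexamethasone samples and 10.33 over the saline samples. In the astrocyte and choroid plexus means the groups overlapped. With the processed signals 0 of 2 neuronal, 1 of 3 oligodendrocyte, 0 of 3 microglial, 2 of 5 blood cell, 2 of 4 choroid plexus and 4 of 7 meningeal markers lay above 0. ABCB1 is also known from choroid plexus and meninges, and their part in its difference was not tested.

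The genes with the pattern most like each of the pair were found by the root mean square difference of log2 values after each gene was centred on its own mean. For ABCB1, over the 7 samples in which it had a value and among 5769 named genes, they were UBFD1 (0.108), NOSTRIN (0.110), SGCE (0.165), SNX5 (0.165) and RABGGTB (0.181). UBFD1, a ubiquitin-domain protein, stood at 10.63, 10.59, 10.58 and 10.76 log2 units in dexamethasone samples 1 to 4, against 9.78, 10.05 and 9.88 in saline samples 1 to 3. NOSTRIN, which binds endothelial nitric oxide synthase and guides its trafficking, stood at 9.68, 9.52, 9.58 and 9.85 in dexamethasone samples 1 to 4, against 8.99, 9.15, 8.91 and 9.05 in saline samples 1 to 4. In both genes, as in ABCB1, dexamethasone 4 was the highest sample and saline 2 the highest saline sample.

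For ANGPT2, over 8 samples and 6010 named genes, the nearest were PTPRR (0.0386), TMEM237 (0.0501), FAXC (0.0547), MPP1 (0.0604) and KICS2 (0.0623). PTPRR, a protein tyrosine phosphatase, stood at 9.36, 9.19, 9.29 and 9.27 log2 units in dexamethasone samples 1 to 4, against 8.85, 9.17, 8.91 and 8.99 in saline samples 1 to 4. Saline 2 was the highest saline sample in it, as in ANGPT2. All of these genes were picked for likeness to a pattern that includes the treatment, so their own differences are no separate result.

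**Figure D5:**
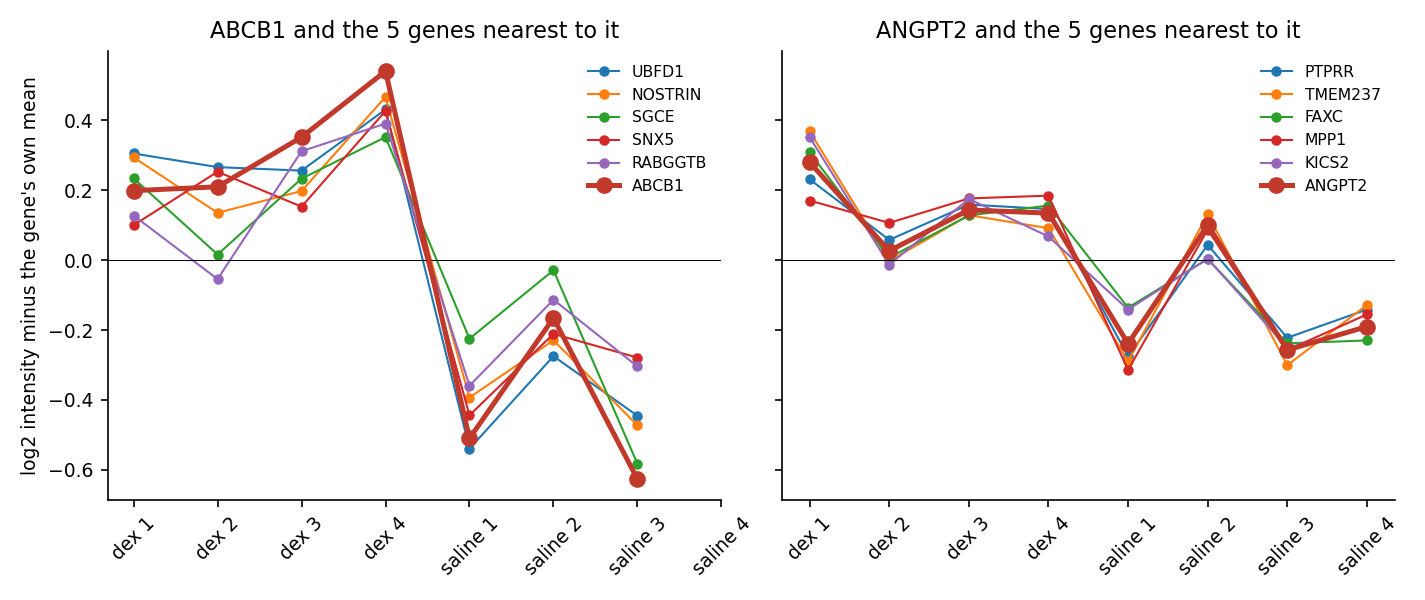
Log2 intensity of ABCB1 (left) and ANGPT2 (right) and of the 5 named genes nearest to each, centred on each gene's own mean, with dexamethasone samples left of saline samples; lines join the values of a gene and mark no order. ABCB1 has no value in saline 4. The root mean square difference is 0.108 to 0.181 log2 units for the genes near ABCB1 and 0.0386 to 0.0623 for those near ANGPT2.

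The genomic neighbours of the pair, in the gene order of the current RefSeq assembly, were looked up after the values of the pair were seen. That assembly has ABCB1 on chromosome 16, while the array's annotation puts its probe on chromosome 10 of oryCun2. On the side of ABCB1 towards DBF4, the differences were 0.12 (SE 0.13) for RUNDC3B, 0.17 (SE 0.18) for the mitochondrial carrier SLC25A40 and -0.29 (SE 0.17) for the replication kinase subunit DBF4. On its other side they were -0.10 (SE 0.10) for ABCB4, 0.11 (SE 0.12) for the carnitine transferase CROT and 0.25 (SE 0.13) for TMEM243. The smallest adjusted p among them was 0.400 (limma, Benjamini-Hochberg). Near ANGPT2, MCPH1, CSMD1, MYOM2 and KBTBD11 had no probe named for them here, and AGPAT5, an acyltransferase, differed by 0.14 (SE 0.09) and XKR5 by -0.06 (SE 0.10).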

How the data were processed

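The deposited scanner files give spot intensity per dye, made with Agilent Feature Extraction (10.7.3.1 per the submitters' processing notes, 11.0.1.1 per the file headers) on array design 020908 with 45220 spots. The 2 samples of an array have the same deposited file, and each was read from its own dye. The deposited series table gives a signal that equals the median minus background intensity over a constant per sample, within 0.1% for 100% of values; its scale and direction are therefore known, with no centring beyond a column median of 1. Probe names came from the array's annotation and a RefSeq gene table of another assembly, which gave 22107 probes 1 symbol, 112 several and 21384 none.

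Mean intensities were background-corrected (normexp, offset 50), normalised within arrays (loess) and between arrays (Aquantile), and separated by dye into log2 values. Outlier spots were left out. A probe was kept if at least 4 of 8 samples had it well above background (23168 probes), the brightest stood for its gene, and a gene needed 3 values in each group. The groups were compared in limma 3.58.1 (R 4.3.3), with dye as covariate and array as random block (correlation 0.240), and Benjamini-Hochberg adjustment ran over 10805 genes. The fit for single probes covered 20707 probes. The script was tested on simulated data.

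ABCB1, ANGPT2 and all 17 lists were chosen with earlier results of these data known. Genes named from the lists were fixed by name or were up to 2 with the highest and up to 2 with the lowest difference in each list; not all are printed, and 1 gene and 1 probe sequence are not reported here. The 5 nearest named genes followed the measure given with them. Alternatives covered background, normalisation, filters, probe rule, array, dye and replicate terms, the deposited table, thresholds and samples or arrays left out. The count of listed genes called under each was added after the data were seen. Same-numbered samples were checked for pairing: the correlations of their deviations from group means were -0.11, -0.131, -0.00664 and 0.101, so the numbers were not taken to pair samples.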

Additional observations from a re-analysis of the deposited data

Results flagged for a closer look

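In 3 of 90 groups of samples of the named genes, 1 sample lay far from the others by Dixon's criterion, where chance flags about 1 in 20. None of the 3 was in ABCB1 or ANGPT2. ITGAV, an integrin subunit that can bind ANGPT2, stood at 8.32 log2 units in dexamethasone 1, against 9.12 to 9.20 in the other dexamethasone samples. ITGA5 stood at 10.10 in saline 1, against 9.75 to 9.81 in the other saline samples. APCDD1 stood at 9.63 in dexamethasone 2, against 9.86 to 9.89 in the other dexamethasone samples.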

How the results depend on the processing

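ABCB1 (0.73) stayed above 0 under all 24 alternatives that gave a value, between 0.61 and 1.34, and between 0.66 and 0.84 with 1 sample left out; it moved by more than the spread between replicates with the processed signals (1.00), no background correction (1.04) and the deposited table (1.34). ANGPT2 (0.29) was 0.56, 0.48 and 0.67 under these settings, 0.21 to 0.39 with 1 sample left out, and turned to -0.76 with scaling to the 75th percentile. Its other probe (0.05) turned to -0.50 with the processed signals, -1.25 with that scaling, -0.023 in the deposited table, -0.093 without the array of saline 1 and 2 and -0.10 without that of dexamethasone 3 and 4, and ran from -0.050 to 0.16 with 1 sample left out. The causes were not tested. The median of all genes moved to -0.28, -0.30 and 0.13 with the processed signals, that scaling and the deposited table, and 35 of 43, 28 of 44 and 41 of 44 other named genes kept their sign there. ABCB1 gave no value where all 8 values were required, and ANGPT2 none where all 8 had to be well above background.

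The 7 genes called became 2230 with scaling to the 75th percentile (48 higher and 2182 lower, against 2 higher and 5 lower), 2 with no filter on dim probes, 29 with no array block, 18 with no dye term, 24 at an adjusted p under 0.1 and 1505 at an unadjusted p under 0.05. They became 2158 without the array of saline 1 and 2, 213 without that of saline 3 and 4, 0 without that of dexamethasone 1 and 2 and 2 without that of dexamethasone 3 and 4, and 0 to 15 with 1 sample left out, 0 without any 1 of the dexamethasone samples and 15 without saline 2. Of the listed genes, 14 were called with that scaling, 17 without the array of saline 1 and 2 and 2 without that of saline 3 and 4, against 0 as reported. With the replicate block 1 gene was called, with ABCB1 at 0.69 and ANGPT2 at 0.29. Signal over background limits ANGPT2, whose probes were well above it in 2 of 4 saline samples.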
